A study of Mus musculus with 32 samples.

Results

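The hippocampus and the amygdala of wild-type (WT) mice were compared gene by gene. The comparison used the 4 hippocampal and the 4 amygdala libraries that the labels give as WT, which are 8 of the 32 libraries of the series, and every gene of the deposited tables except the spike-in sequences. The mice were adult 129xB6 F1 males (from 129S1/SvImJ and C57BL/6J parents) without a mutant allele, and both regions were microdissected from the same 4 animals, out of 16 animals in the series. The other 24 libraries came from 12 F1 males of the same cross that were heterozygous for *Kmt2a* (2a-HET), lacked *Kdm5c* (5c-KO) or carried both lesions (DM). They were used to ask whether the WT difference recurs in animals it did not use and whether it differs from the mean difference of the mutant genotypes. RNA was taken from whole dissected tissue, so that fewer cells of a type and less RNA per cell cannot be told apart in any value below.

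The hippocampus is a cortical structure. Its granule cells of the dentate gyrus and its pyramidal cells of fields CA1 to CA3 are excitatory neurons that arise from the pallium of the embryonic forebrain, and the region is best known for spatial and episodic memory. The amygdala is a group of nuclei of mixed origin. Its basolateral nuclei hold cortex-like excitatory neurons, whereas the central and medial nuclei hold mostly inhibitory GABAergic neurons that arise from the subpallium, as the neurons of the striatum do, and the region is best known for emotional learning and social behaviour. The amygdala borders on the striatum, the globus pallidus and the hypothalamus, and the hippocampus borders on the choroid plexus and the thalamus.

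Between 21644360 and 24198259 counts were assigned to genes in the amygdala libraries and between 20512162 and 26915444 in the hippocampal ones, and 21547 to 23216 genes had a count. Spike-in RNA took 0.120 to 0.511% of amygdala counts and 0.0503 to 0.295% of hippocampal counts. The floor of detection was set at 3 counts, or 0.111 to 0.146 CPM (counts scaled to library size), and covers counting error only. The first principal component of the 500 most variable genes held 75.4% of the variance and placed the hippocampal libraries at 13.5 to 21.04 and the amygdala libraries of mice 2 to 4 at -23.5 to -19.3. The amygdala library of mouse 1 lay at -7.74, apart from its group and on the amygdala side, and it also lay apart on the second component (17.8, against -7.59 to 2.45 for the other 7). The hippocampal library of mouse 4 lay nearest to the amygdala side of its own group. Of the 1794 genes called higher in the amygdala, 53.6% had their lowest amygdala value in mouse 1, and of the 1619 genes called higher in the hippocampus, 53.7% had their lowest hippocampal value in mouse 4. Calls of named genes that changed without the amygdala library of mouse 1 are given beside the genes.

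Of 20601 genes tested, 3413 (16.6%) differed between the regions at an adjusted *p* under 0.1, by the Wald test of DESeq2 with Benjamini-Hochberg adjustment over all tested genes. Genes past this threshold are described as called. In the hippocampus 1619 genes (7.86% of those tested) were higher and in the amygdala 1794 (8.71%). Differences were larger on the amygdala side, where 875 called genes differed by at least 2-fold and 381 by at least 4-fold, against 579 and 200 on the hippocampal side. Of the 3413 genes, 3159 pointed the same way in all 4 mice, against 6224 of the 20601 tested, and the values of the groups did not overlap for 2665, against 3343 of all tested. The main fit did not pair the regions of a mouse, and with the mouse as a block 3047 genes were called, 2820 of them among the 3413. The quasi-likelihood test of edgeR called 2926 genes, of which 2892 were also called by DESeq2. Without the amygdala library of mouse 1 the number rose to 4336, which held 3159 of the 3413. With size factors from the spike-in RNA only 305 genes were called and the split changed from 47.4% to 70.2% higher in the hippocampus. These factors raised the log2 fold change of the median gene by 0.77. They ran from 0.634 to 2.82 among the amygdala libraries and from 0.312 to 1.43 among the hippocampal ones. The size factors of the main fit ran from 0.858 to 1.15 over all 8 libraries.

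**Figure D1:**
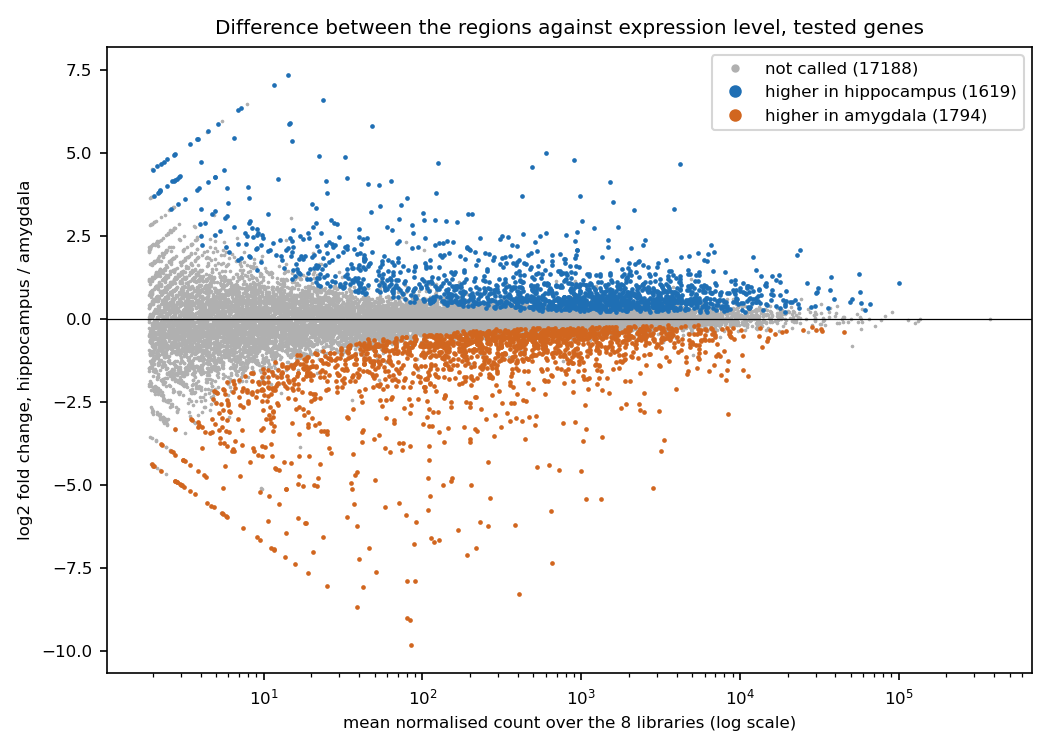
Log2 fold change of hippocampus over amygdala (vertical axis) against the mean normalised count over the 8 WT libraries (horizontal log axis), with 1 point for each of the 20601 tested genes. Blue points are the 1619 genes called higher in the hippocampus, orange points the 1794 called higher in the amygdala and grey points the genes not called, and the widest differences lie below 0, on the amygdala side.

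Values below are counts divided by the size factor of the library (normalised counts), listed for mice 1, 2, 3 and 4. Fold changes are log2 of hippocampus over amygdala ± standard error (SE) from 4 mice, so that a positive value is higher in the hippocampus. The fit behind them held region only, so that SE and adjusted *p* do not use the pairing of the regions within a mouse. Normalised counts are not divided by transcript length and are compared only within a gene.

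The genes with the smallest adjusted *p* on the hippocampal side were *Il16*, *Adra1d* and *Fibcd1*, with *Olfml2b* and *Cabp7* after them and after *Lct*. *Il16*, the precursor of the cytokine interleukin-16 (ENSMUSG00000001741.12, mm10 chr7:83642825-83745726), had normalised counts of 1098, 986, 1165 and 499 in the hippocampus against 41.7, 25.3, 47.0 and 43.1 in the amygdala. All 4 hippocampal values lay more than 10 times above the highest amygdala value, the lowest being that of mouse 4, and the log2 fold change was 4.58 ± 0.29, adjusted *p* = 2.93e-53. *Adra1d* encodes the alpha-1D adrenergic receptor for noradrenaline, and its counts were 2397, 1636, 1643 and 1616 in the hippocampus against 155, 86.3, 206 and 114 in the amygdala (3.70 ± 0.25, adjusted *p* = 7.44e-46). Mouse 1 was the highest of the hippocampal libraries, and the other 3 lay close together. *Il16* and *Adra1d* overlap other genes on the opposite strand (*Stard5* and *2310044K18Rik*, and *Gm14285*), to which part of their reads may belong. *Fibcd1*, a receptor for acetylated sugars that marks CA1, had counts of 3709, 5234, 3909 and 2676 in the hippocampus against 292, 429, 378 and 498 in the amygdala (3.28 ± 0.22, adjusted *p* = 1.33e-45), without overlap.

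By fold change the hippocampal side was led by *Lct*, which encodes the milk-sugar enzyme lactase (ENSMUSG00000026354.8, chr1:128284756-128328318). Its counts were 1253, 1584, 1266 and 587 in the hippocampus against 69.2, 27.2, 21.9 and 29.4 in the amygdala (4.99 ± 0.36, adjusted *p* = 4.20e-40), with mouse 1 highest in the amygdala and mouse 4 lowest in the hippocampus. *Dsp*, the cell-junction protein desmoplakin, had counts of 2179.8, 2318, 1545 and 884 in the hippocampus against 18.0, 36.6, 113 and 82.6 in the amygdala (4.79 ± 0.61, adjusted *p* = 2.95e-13). The sodium-proton exchanger gene *Slc9a4* (4.70), the homeobox gene *Sebox* (4.17), the transcription factor *Neurod6* (4.12), and the netrin-family gene *Ntn5* (3.78) followed, as did *Olfml2b* (3.71) and the calcium-binding protein gene *Cabp7* (3.31) by adjusted *p*, and the groups did not overlap for any of these 6 genes. *Ttr*, transthyretin of the choroid plexus, also belongs to the 8 largest differences (4.67), but its groups overlapped, as described below.

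On the amygdala side the smallest adjusted *p* belonged to *Baiap3*, which encodes a protein of the family that releases dense-core vesicles (ENSMUSG00000047507.12, chr17:25242659-25256364). Its counts were 4128, 8113, 4997 and 4787 in the amygdala against 176, 166, 104 and 195 in the hippocampus (-5.10 ± 0.25, adjusted *p* = 2.06e-91), so that the lowest amygdala library held over 20 times the count of the highest hippocampal one. *Ecel1*, a membrane peptidase (ENSMUSG00000026247.13, chr1:87147655-87156521), had counts of 1273, 2884, 2063 and 2181 in the amygdala against 61.8, 27.8, 38.8 and 67.7 in the hippocampus (-5.42 ± 0.30, adjusted *p* = 1.65e-70). Mouse 1 was the lowest amygdala library for both genes. *Baiap3* overlaps *Tsr3* on the other strand, so that its counts are uncertain to that extent. The retinoid receptor gene *Rxrg* (-3.52), *Zcchc12* (-2.80) and the enkephalin precursor gene *Penk* (-3.66) were also among the genes with the smallest adjusted *p*, each without overlap.

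The largest fold changes on this side belonged to genes with almost no hippocampal counts. *Lhx8*, a LIM-homeobox factor of forebrain cholinergic neurons (ENSMUSG00000096225.7, chr3:154306294-154330659), had 19.9, 250.4, 128 and 283 normalised counts in the amygdala and 0 in all 4 hippocampal libraries, which put it at least 55.0-fold lower in the hippocampus when each of these libraries is set to the floor of 3 counts (adjusted *p* = 2.45e-09). *Isl1*, another LIM-homeobox factor, had 1 count in the 4 hippocampal libraries together. The amygdala level of *Isl1* was 623 times the hippocampal one, with a counting interval (95%, exact) of 111 to 24644. The same ratio was 234 for the calcitonin receptor *Calcr* (79.8 to 1137) and 197 for the hypothalamic factor *Sim1* (54.3 to 1635). *Irs4*, an adaptor of the insulin receptor, had counts of 114, 1492, 854 and 791 in the amygdala against 0, 1.99, 1.11 and 6.95 in the hippocampus (-8.29 ± 1.06, adjusted *p* = 6.27e-13). *Otp*, a homeobox factor of hypothalamic peptide neurons, followed with counts of 149, 727, 430.1 and 214 in the amygdala against 1.17, 0, 0 and 9.55 in the hippocampus (-7.11 ± 1.25, adjusted *p* = 5.31e-07). In all 6 of these genes the amygdala library of mouse 1 was the lowest of its group.

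**Figure D2:**
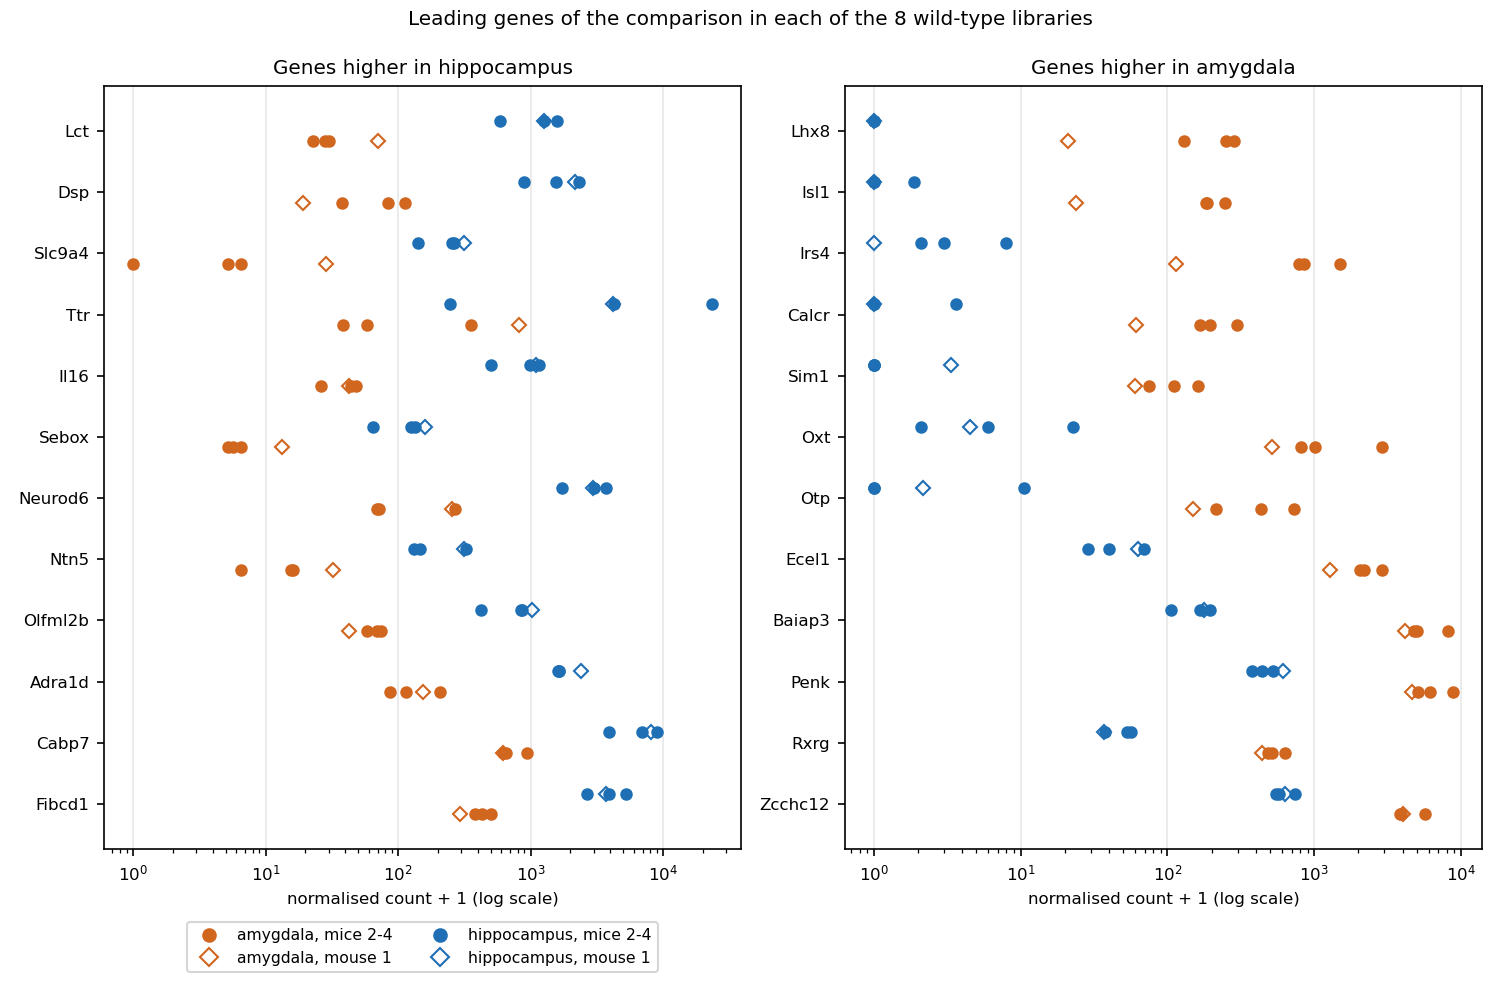
Normalised counts plus 1 (log axis) of 24 of the genes with the largest fold changes or the smallest adjusted p in each direction, with amygdala libraries in orange, hippocampal libraries in blue and mouse 1 as open diamonds. The regions are separated for 23 of the 24 genes, Ttr being the exception, and mouse 1 lies lowest among the amygdala libraries for 11 of the 12 genes higher in the amygdala.

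Promoter windows are shown for the genes with the smallest adjusted *p* in each direction that matched a window, because these genes carry the clearest regional difference. *Adra1d* was not matched. Each window runs from 250 bases before to 50 bases after a gene start in RefSeq (GRCm38.p6), is written 5′ to 3′ on the strand of the gene, and lies on the minus strand in all 4 cases. Capitals mark the E-box hexamers CAGCTG and CATCTG on either strand, to which basic helix-loop-helix factors such as Neurod6 are known to bind. *Il16* (chr7:83735490-83735789) has 3 listed windows and the first is shown, *Fibcd1* lies at chr2:31845956-31846255, *Baiap3* at chr17:25256315-25256614 and *Ecel1* at chr1:87156307-87156606.
Il16: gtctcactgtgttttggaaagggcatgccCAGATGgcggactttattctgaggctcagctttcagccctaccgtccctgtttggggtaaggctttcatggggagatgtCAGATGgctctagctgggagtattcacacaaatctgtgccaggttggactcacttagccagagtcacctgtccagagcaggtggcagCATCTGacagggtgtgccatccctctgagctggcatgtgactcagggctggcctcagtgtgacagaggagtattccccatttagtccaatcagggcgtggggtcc
Fibcd1: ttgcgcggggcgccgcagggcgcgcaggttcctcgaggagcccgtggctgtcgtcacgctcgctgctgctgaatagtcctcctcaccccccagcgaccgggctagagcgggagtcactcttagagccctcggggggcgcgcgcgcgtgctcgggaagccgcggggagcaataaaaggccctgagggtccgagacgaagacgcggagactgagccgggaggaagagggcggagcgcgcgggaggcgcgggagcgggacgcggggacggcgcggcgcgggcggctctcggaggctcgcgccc
Baiap3: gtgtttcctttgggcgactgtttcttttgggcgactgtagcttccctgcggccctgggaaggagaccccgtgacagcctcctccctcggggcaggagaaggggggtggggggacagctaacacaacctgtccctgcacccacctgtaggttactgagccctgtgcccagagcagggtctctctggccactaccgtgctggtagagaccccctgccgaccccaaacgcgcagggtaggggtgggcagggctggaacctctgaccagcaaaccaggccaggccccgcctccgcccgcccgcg
Ecel1: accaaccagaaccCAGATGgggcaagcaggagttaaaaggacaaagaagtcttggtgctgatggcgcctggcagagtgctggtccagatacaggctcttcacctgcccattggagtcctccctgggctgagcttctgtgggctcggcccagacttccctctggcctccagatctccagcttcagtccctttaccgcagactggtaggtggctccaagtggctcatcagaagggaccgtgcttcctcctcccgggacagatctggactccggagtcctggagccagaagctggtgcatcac

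The *Il16* window held 3 matches to CATCTG and the *Ecel1* window 1, and the *Fibcd1* and *Baiap3* windows held no E-box of these letters. Over 13580 tested genes with a window, the first listed for each, 16.0% held CAGCTG and 12.9% CATCTG. Among 1175 genes higher in the hippocampus the shares were 18.0% and 12%, and among 1341 genes higher in the amygdala 18.8% and 15.2%. The GC box GGGCGG was held by 63.1% of the hippocampal, 58.9% of the amygdala and 58.7% of all tested windows, and the TATA sequence TATAAA by 7.23%, 7.53% and 8.13%. The homeobox core TAATTA was held by 2.13%, 2.91% and 2.97%, TGACAG by 15.7%, 16.8% and 17.0%, TGTTTAC by 2.72%, 1.79% and 2.60% and the cAMP response element TGACGTCA by 2.04%, 1.49% and 2.89%. All shares are descriptions on both strands, and a match is not a binding site.

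The noncoding genes were named by the smallest adjusted *p* among called genes that are not protein coding. *Six3os1*, which lies antisense to *Six3*, had counts of 123, 381, 341 and 482 in the amygdala against 0, 2.98, 7.76 and 5.21 in the hippocampus (-6.36 ± 0.54, adjusted *p* = 1.67e-29). *Six3* itself, a homeobox factor of striatal projection neurons, had counts of 299.7, 851, 863 and 1019 in the amygdala against 3.50, 6.96, 22.2 and 8.68 in the hippocampus (-6.20 ± 0.61, adjusted *p* = 2.09e-21). The study's methods name a directional library kit. Because the strand setting of the counting is not given in the sources used here, reads of this overlapping pair are still uncertain between *Six3os1* and *Six3*. *Lrp8os2* was higher in the amygdala (-3.73), and *M5C1000I18Rik*, which overlaps *C2cd4b* on the other strand, was higher in the hippocampus (2.06).

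Gene lists for cell types and functions were counted next, each beside the background of 7.86% of tested genes called higher in the hippocampus, 8.71% called higher in the amygdala and a median log2 fold change of -0.02 over all tested genes. The lists are described by counts and medians and were not tested as sets. With spike-in size factors fewer genes were called in all 31 lists that had a call, and the medians of 13 of the 36 lists turned from negative to positive.

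Of 15 genes of dentate gyrus granule cells, 12 were higher in the hippocampus and 1 in the amygdala, with a median log2 fold change of 1.86. *Il16* and *Lct* are among them. *Npnt*, the matrix protein nephronectin, had counts of 929, 887, 641 and 947 in the hippocampus against 93.9, 189, 186 and 208 in the amygdala (2.33 ± 0.24, adjusted *p* = 7.21e-20). *C1ql2*, a secreted synaptic protein of mossy fibres, had 2302, 1591, 1404 and 1207 in the hippocampus against 167, 396, 293 and 205 in the amygdala (2.62 ± 0.28, adjusted *p* = 1.20e-18). The exception was *Calb1*, the calcium buffer calbindin, with counts of 2924, 2603, 3138 and 2932 in the amygdala against 2594, 2121, 1700.3 and 2083 in the hippocampus (-0.45 ± 0.15, adjusted *p* = 0.0191), and its sign turned with spike-in size factors. The call was lost when 1 of the 8 libraries was left out (adjusted *p* = 0.107). *Plk5* (-0.40) and *Pdia5* (-0.26) were not called. The summed level of the list was 14036 to 21076 normalised counts in the hippocampus and 7298 to 9226 in the amygdala.

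Of 12 genes of CA1 pyramidal cells, 10 were higher in the hippocampus (median 1.85). The lead was *Fibcd1*, followed by the protease inhibitor gene *Spink8* with counts of 133, 124, 165 and 173 in the hippocampus against 20.9, 10.3, 10.4 and 6.42 in the amygdala (3.63 ± 0.33, adjusted *p* = 8.73e-26). *Lefty1*, a secreted inhibitor of Nodal signalling, had counts of 251, 213, 176 and 84.2 in the hippocampus against 29.4, 18.8, 14.6 and 15.6 in the amygdala (3.20 ± 0.37, adjusted *p* = 1.22e-15). The receptor gene *Gpr161* (1.91) was called as well, whereas *Wfs1*, a protein of the endoplasmic reticulum, had counts of 4399, 5144, 5255 and 3091 in the hippocampus against 6443, 4672, 4149 and 5706 in the amygdala (-0.23 ± 0.20, adjusted *p* = 0.605) and *Fndc5* a log2 fold change of 0.29 (adjusted *p* = 0.56). The ranges of *Wfs1* overlapped, and the highest single value was that of the amygdala of mouse 1.

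Genes of the CA3 and CA2 fields were divided, with 7 of 15 higher in the hippocampus and 5 in the amygdala (median -0.21, which became 0.44 with spike-in size factors). The secreted glycoprotein gene *Dkk3* had counts of 10971, 11258, 11173 and 9987 in the hippocampus against 3192, 1633, 2729 and 1804 in the amygdala (2.21 ± 0.21, adjusted *p* = 8.93e-24) and the kainate receptor gene *Grik4* 1465, 1239, 1368 and 959 in the hippocampus against 291, 551, 483 and 552 in the amygdala (1.42 ± 0.22, adjusted *p* = 5.07e-09). The cell adhesion gene *Nectin3* (0.94) and *Iyd* (4.14) were also higher in the hippocampus, and *Amigo2* (-0.21) and *Elavl2* (-0.22) were not called, although *Elavl2* was called higher in the amygdala without the amygdala library of mouse 1 (adjusted *p* = 0.00243). In contrast, *Pcp4*, a calmodulin regulator that marks CA2 within the hippocampus, was higher in the amygdala, with counts of 3989, 4615, 6761 and 4757 in the amygdala against 1906, 1500.3, 2572.1 and 2392 in the hippocampus (-1.27 ± 0.21, adjusted *p* = 9.29e-08). *Cacng5* (-1.48) and the phosphatase gene *Ptpn5* (-0.84, of the opposite sign with spike-in size factors) were higher in the amygdala too, and striatal neurons are known to express *Ptpn5* and *Pcp4*. Among 12 genes of newborn granule cells and progenitors, 2 were higher in the hippocampus and 3 in the amygdala. The proliferation marker *Mki67* had counts of 35.0, 84.5, 56.6 and 45.1 in the hippocampus against 19.0, 16.9, 14.6 and 43.1 in the amygdala (1.24 ± 0.43, adjusted *p* = 0.032). *Neurod1*, a factor of immature granule cells, had 678, 437, 426 and 381 in the hippocampus against 289, 109.7, 166 and 81.6 in the amygdala (1.57 ± 0.35, adjusted *p* = 1.06e-04), while doublecortin (*Dcx*) had a log2 fold change of -0.32 (adjusted *p* = 0.516). *Mki67* overlapped between the groups, and its call was lost when any of 3 of the 8 libraries was left out (adjusted *p* = 0.134 to 0.214). *Calb2*, *Eomes* (-2.07) and *Sox11* (-0.66, of the opposite sign with spike-in size factors) were the members higher in the amygdala, and the call of *Eomes* was lost when 1 of the 8 libraries was left out (adjusted *p* = 0.103).

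Transcription factors that pattern the embryonic forebrain separated the regions. Of 18 pallial and hippocampal factors 13 were higher in the hippocampus and 1 in the amygdala (median 1.33), and of 24 subpallial factors 20 were higher in the amygdala (median -1.68, and -1.68 with *Lhx8* at its bound). *Nfix*, a nuclear factor of hippocampal development, had counts of 8699, 9873, 8164 and 10104 in the hippocampus against 2476, 2231, 3371 and 2653 in the amygdala (1.78 ± 0.15, adjusted *p* = 1.02e-28). *Neurod6*, a factor of pyramidal neurons, had 2983, 3024, 3720.1 and 1722 in the hippocampus against 254, 71.3, 267 and 67.9 in the amygdala (4.12 ± 0.56, adjusted *p* = 1.31e-11). The pallial exception was *Nr2f2* (COUP-TFII), with counts of 2185, 1536, 1542 and 1047 in the amygdala against 615, 466, 334 and 517 in the hippocampus (-1.71 ± 0.24, adjusted *p* = 1.25e-10). *Mef2c* (0.16) and *Nr2f1* (0.09) were not called.

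Among the subpallial factors, *Pbx3* had counts of 386, 593, 450.0 and 747 in the amygdala against 109.6, 95.4, 77.6 and 90.3 in the hippocampus (-2.55 ± 0.23, adjusted *p* = 4.88e-25). *Sp9*, which promotes the formation of striatal and interneuron precursors, had 516, 538, 530.4 and 647 in the amygdala against 197, 177, 149.7 and 198 in the hippocampus (-1.63 ± 0.15, adjusted *p* = 2.77e-24). *Meis1*, a partner of the Pbx factors, had counts of 189.7, 187, 175 and 214 in the amygdala against 19.8, 34.8, 15.5 and 44.3 in the hippocampus (-2.72 ± 0.29, adjusted *p* = 9.14e-19). The amygdala values of these 3 genes in mouse 1 lay within or just below those of the other mice, unlike those of *Isl1*, *Lhx8* and *Six3*. A factor of this list that was not called was *Foxp1*, whose amygdala counts of 516, 1082, 1812 and 2746 spanned more than the hippocampal 1283, 1765, 1461 and 1716.

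Markers of the amygdala nuclei differed by nucleus. Of 18 genes of the GABAergic central and medial nuclei 15 were higher in the amygdala (median -2.44), with 4 still called under spike-in size factors. *Ecel1* led this list, followed by *Cartpt*, the precursor of the peptide CART, with counts of 409.7, 417, 423 and 362 in the amygdala against 44.3, 13.9, 51.0 and 47.7 in the hippocampus (-3.36 ± 0.28, adjusted *p* = 2.32e-29). *Esr1*, the estrogen receptor alpha, had counts of 132, 191, 177 and 157 in the amygdala against 39.6, 53.7, 31.1 and 33.9 in the hippocampus (-2.05 ± 0.24, adjusted *p* = 4.20e-15). *Drd1*, the D1 dopamine receptor, had 304, 771, 858 and 1749 in the amygdala against 81.6, 111, 119.8 and 92.02 in the hippocampus (-3.19 ± 0.39, adjusted *p* = 4.37e-14). *Prkcd*, a kinase that marks a class of central amygdala neurons and thalamic neurons, was not called, and its amygdala counts of 359, 354, 2702 and 939 and hippocampal counts of 289, 422, 833 and 270.0 overlapped. The summed level of the list was 7517 to 17734 in the amygdala, lowest in mouse 1, and 2726 to 3680.0 in the hippocampus.

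Genes of basolateral excitatory neurons showed no common side, with 5 of 12 higher in the hippocampus and 4 in the amygdala (median 0.13). *Otof*, the vesicle protein otoferlin, had counts of 2266, 1746, 1291 and 1879.8 in the amygdala against 302, 211, 277 and 881 in the hippocampus (-2.10 ± 0.50, adjusted *p* = 3.98e-04), with mouse 4 far above the other hippocampal libraries. The axon guidance gene *Sema3e* (1.68) and the transcriptional cofactor gene *Lmo4* (0.89) were higher in the hippocampus. *Tbr1* (0.49) and *Lmo3* (-0.24) were not called, although *Tbr1* was called higher in the hippocampus without the amygdala library of mouse 1 (adjusted *p* = 0.0341). In summed level the list was highest in the amygdala of mouse 1 (16088 normalised counts), against 10435 to 10953 in the other amygdala libraries.

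Striatal genes had the lowest median of all lists after the hypothalamus. Of 17 genes of striatal medium spiny neurons 16 were higher in the amygdala, with a median of -3.56. *Penk*, the enkephalin precursor, had counts of 4636, 5059, 6100.1 and 8811 in the amygdala against 614, 438, 522 and 378 in the hippocampus (-3.66 ± 0.23, adjusted *p* = 2.36e-55). *Tac1*, the precursor of substance P, had 412, 904, 661 and 1287 in the amygdala against 54.8, 62.6, 66.5 and 79.0 in the hippocampus (-3.63 ± 0.31, adjusted *p* = 4.95e-29). *Adora2a*, an adenosine receptor, had counts of 728, 1951, 2778 and 4965 in the amygdala against 58.3, 53.7, 76.5 and 53.8 in the hippocampus (-5.43 ± 0.56, adjusted *p* = 4.20e-20). For these genes mouse 1 was the lowest and mouse 4 the highest amygdala library, and in the summed list the amygdala libraries ran from 28587 in mouse 1 to 117314 in mouse 4, while all hippocampal ones lay between 13388 and 15041. The central nucleus is known to share these genes with the striatum, and the share that came from adjoining striatum was not tested.

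Tissue that borders on the dissected regions was checked by its own markers. Of 13 hypothalamic genes tested 12 were higher in the amygdala (median -5.77) and 9 with edgeR, and the summed level was 2727, 7995, 5189.7 and 2417 in the amygdala libraries against 83.2 to 173 in the hippocampal ones. *Oxt*, the oxytocin precursor, had counts of 515, 2889.3, 1005 and 813 in the amygdala against 3.50, 4.97, 1.11 and 21.7 in the hippocampus (-7.36 ± 0.93, adjusted *p* = 2.82e-13). *Trh*, the thyrotropin-releasing hormone precursor, had 236, 959, 479 and 379.8 in the amygdala against 10.5, 3.98, 3.33 and 9.55 in the hippocampus (-6.23 ± 0.48, adjusted *p* = 1.24e-35). *Gal*, the galanin precursor, had counts of 38.9, 277, 128 and 112 in the amygdala against 17.5, 11.9, 5.55 and 1.74 in the hippocampus (-3.94 ± 0.61, adjusted *p* = 5.25e-09). The vasopressin precursor *Avp*, named after its values were seen, had counts of 1540.3, 2048, 790.3 and 706 in the amygdala against 67.6, 4.97, 3.33 and 17.4 in the hippocampus (-5.77 ± 0.94, adjusted *p* = 3.39e-08). *Oxt*, *Trh* and *Avp* were present in every amygdala library, and *Agrp* (-1.36) was not called. *Pmch* and *Hcrt*, the melanin-concentrating hormone and orexin precursors of the lateral hypothalamus, were also named after their values were seen, because they were high in only 2 mice. *Pmch* had amygdala counts of 14.2, 431, 1275 and 10.1 (-6.89 ± 1.40, adjusted *p* = 2.17e-05), and *Hcrt* had 3.79, 143, 488 and 0, where the call (adjusted *p* = 0.03) was lost with the mouse as a block (0.149). The hippocampal libraries held 3 counts of *Hcrt* in all, and the ratio was 195 with a counting interval of 66.6 to 950.3. How much of the amygdala-side difference came from hypothalamic tissue was not tested.

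Cholinergic and thalamic genes also varied between the amygdala libraries. *Slc18a3*, the vesicular acetylcholine transporter, had counts of 29.4, 319.8, 199 and 305 in the amygdala against 1.17, 3.98, 3.33 and 6.95 in the hippocampus (-5.77 ± 0.85, adjusted *p* = 7.48e-10). *Chat*, which makes acetylcholine and was named after its values were seen, had 20.9, 371, 185 and 364 in the amygdala against 1.17, 0.994, 2.22 and 4.34 in the hippocampus (-6.73 ± 1.005, adjusted *p* = 1.31e-09). Of 10 thalamic genes 7 were higher in the amygdala (median -1.79) and 5 with edgeR. *Tcf7l2*, a Wnt effector of thalamic neurons, had counts of 125, 627, 1512 and 1073 in the amygdala against 90.9, 110.4, 105 and 124 in the hippocampus (-2.95 ± 0.66, adjusted *p* = 1.62e-04), and *Gbx2*, a homeobox factor of the thalamus and of striatal cholinergic neurons named after its values were seen, 1.90, 168, 325 and 219 in the amygdala against 5.83, 0, 1.11 and 3.47 in the hippocampus (-6.11 ± 1.39, adjusted *p* = 2.05e-04). In all 4 genes the amygdala library of mouse 1 was the lowest of its group, and for *Gbx2* it lay inside the hippocampal range. *Plekhg1* (-0.70) and *Ntng1* (-0.55) were not called, and *Ntng1* was higher in the amygdala once this library was left out (-0.79, adjusted *p* = 0.00144).

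Choroid plexus genes pointed to the hippocampal side, with 8 of 12 higher there (median 2.30). *Ttr*, the thyroid hormone carrier that fills choroid plexus cells, had counts of 4175, 247, 23483 and 4279 in the hippocampus against 812, 37.5, 357 and 56.9 in the amygdala (4.67 ± 1.31, adjusted *p* = 0.00436), so that the hippocampal values spanned nearly 100-fold and that of mouse 2 lay inside the amygdala range. The call was lost without the hippocampal library of mouse 3 (adjusted *p* = 0.101). *Kl*, the ageing-related protein klotho, had counts of 822, 559.7, 1045 and 514 in the hippocampus against 82.5, 116, 147 and 150.5 in the amygdala (2.57 ± 0.27, adjusted *p* = 2.30e-19) and did not overlap, and dentate granule cells are known to express it as well. *Aqp1*, a water channel, had counts of 61.8, 30.8, 129 and 48.6 in the hippocampus against 17.1, 9.38, 12.5 and 17.4 in the amygdala (2.25 ± 0.47, adjusted *p* = 3.79e-05). The coagulation factor gene *F5* (2.34) and *Mfrp* (2.67), which shares exons with *C1qtnf5* and is uncertain for that reason, were called, and *Prlr* (-1.37) and *Clic6* (-1.15) were not. Without the amygdala library of mouse 1, *Prlr* was called higher in the amygdala (-1.69, adjusted *p* = 6.90e-05). The summed list was 5681, 1043, 26599 and 5558 in the hippocampal libraries and 1359.8 to 1376 in the amygdala ones, so that mouse 2 lay below the amygdala and mouse 3 far above the other mice. The part of choroid plexus tissue in these differences was not tested.

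**Figure D3:**
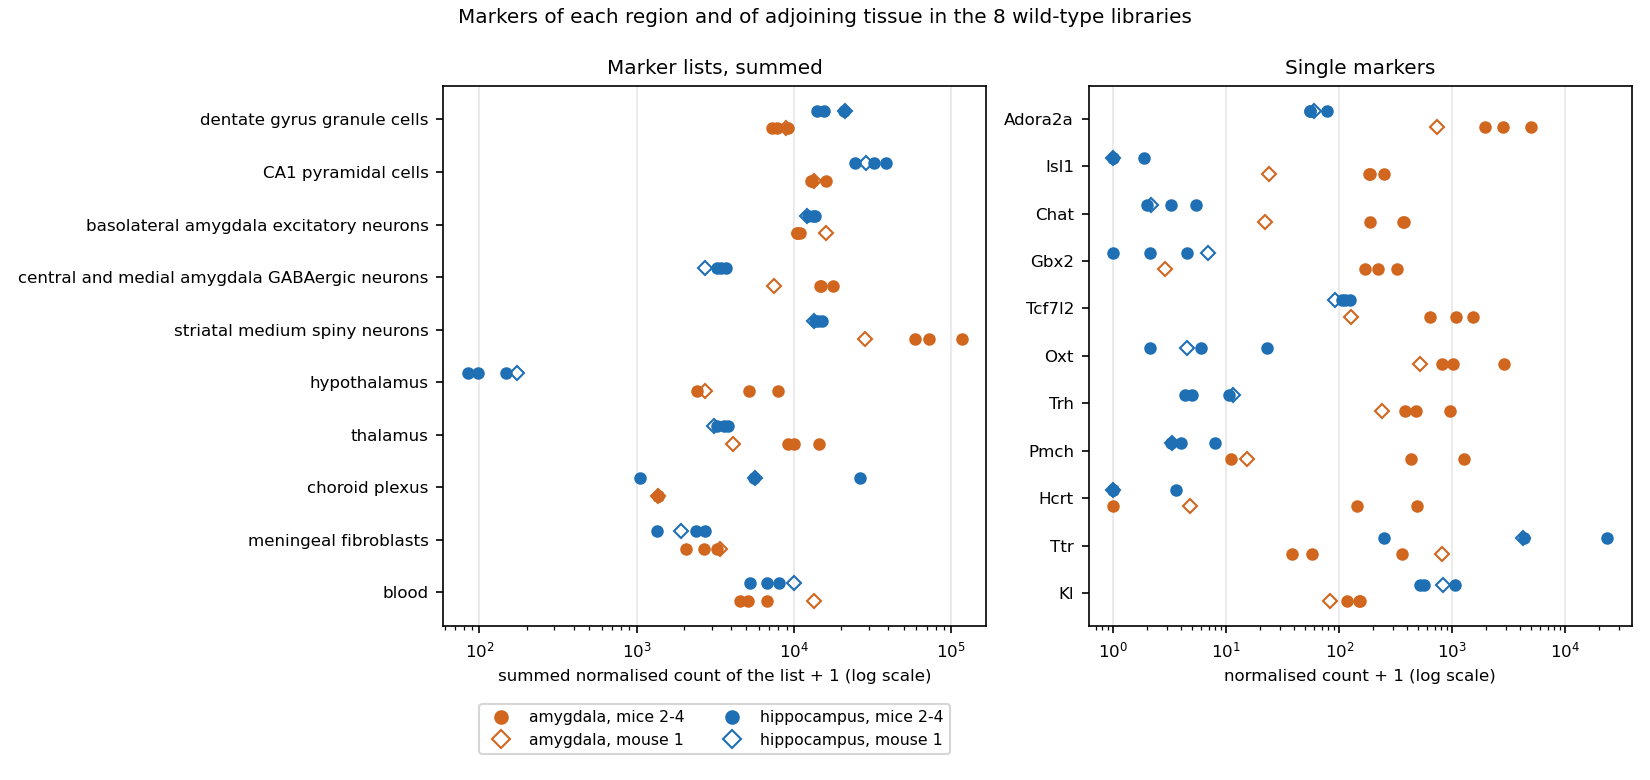
Summed normalised counts of 10 marker lists (left) and normalised counts of 11 single markers (right), each plus 1 on a log axis, in the 8 WT libraries, with amygdala in orange, hippocampus in blue and mouse 1 as open diamonds. The striatal list runs from 28587 to 117314 in the amygdala, and the amygdala library of mouse 1 lies lowest for Adora2a, Isl1, Chat, Gbx2, Tcf7l2, Oxt, Trh and Kl.

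Oligodendrocytes, microglia, vessels and blood showed no called gene. By DESeq2, 0 of 13 oligodendrocyte genes, 0 of 12 microglial genes, 0 of 12 endothelial and mural genes and 0 of 5 blood genes were called, with 0 of these 42 genes at an unadjusted *p* under 0.05 and 0 called by edgeR. *Mbp*, the myelin basic protein, had counts of 28521, 51089.5, 68828 and 58614 in the amygdala against 45322, 50978, 75967 and 55325 in the hippocampus (0.14 ± 0.25, adjusted *p* = 0.862). *Csf1r*, the growth factor receptor of microglia, had counts of 3869.6, 2249.7, 2610.0 and 2456 in the amygdala against 2919, 2235, 2514 and 2193 in the hippocampus (-0.18 ± 0.19, adjusted *p* = 0.69). Both overlapped between regions, as *Flt1* and *Hba-a2* did, and mouse 1 held the lowest amygdala value of *Mbp* and the highest of *Csf1r*. Without the amygdala library of mouse 1, 1 oligodendrocyte gene, *Cnp*, named after its values were seen, was called higher in the amygdala (-0.36, adjusted *p* = 0.0869) and 1 blood gene, *Hba-a2*, higher in the hippocampus (0.59, 0.0557), with 0 microglial and 0 vascular genes called. The blood list was likewise highest in the amygdala of mouse 1, at 13416 against 4524 to 6758 in the other 3. Of 8 meningeal fibroblast genes 5 were higher in the amygdala (4, and 1 in the hippocampus, without the amygdala library of mouse 1), among them the collagen gene *Col1a2* (-1.19) and the transporter gene *Slc22a6* (-1.65), with a median of -0.80 that became 0.02 with spike-in size factors, whereas *Igf2* (-0.16) and *Dcn* (0.18) were not called. Of 9 ependymal genes 1 was called, *Rarres2* (-0.59 ± 0.22, adjusted *p* = 0.0494), and that call was lost with the mouse as a block (0.143) and without the amygdala library of mouse 1 (0.125), and it was lost when any of 4 of the 8 libraries was left out (adjusted *p* = 0.125 to 0.206).

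Astrocyte genes differed in both directions. Of 14, 6 were higher in the amygdala with 2 on the hippocampal side (median -0.21), against 0 and 0 with spike-in size factors (median 0.57). *Agt*, angiotensinogen, had counts of 2180.5, 3849.5, 3543 and 2705 in the amygdala against 500.1, 520.0, 501 and 405 in the hippocampus (-2.67 ± 0.19, adjusted *p* = 1.06e-40). *Itih3*, a matrix-stabilising serum protein, had 1245, 4657, 3692 and 3584 in the amygdala against 525, 563, 576 and 545 in the hippocampus (-2.58 ± 0.30, adjusted *p* = 3.54e-15). *Slc6a11*, the GABA transporter GAT-3, had counts of 5888, 16347, 14314 and 12521 in the amygdala against 4849, 4074, 3650.2 and 4470.1 in the hippocampus (-1.53 ± 0.26, adjusted *p* = 1.82e-07). By contrast, *Gfap*, the filament protein of astrocytes, had counts of 9025, 8536, 7399 and 5213 in the hippocampus against 5267, 3789, 3844 and 3546 in the amygdala (0.88 ± 0.20, adjusted *p* = 1.71e-04), with the hippocampus of mouse 4 just below the amygdala of mouse 1, and the glutamate transporter gene *Slc1a2* was higher in the hippocampus by 0.45, a call lost when any of 2 of the 8 libraries was left out (adjusted *p* = 0.131 to 0.134). The general astrocyte genes *Gja1* (-0.14) and *Slc1a3* (-0.05) were not called. Among 8 genes of oligodendrocyte precursors 4 were higher in the amygdala. *Lhfpl3* stood out with 699, 877, 840.4 and 903 in the amygdala against 267, 308, 323 and 274 in the hippocampus (-1.50 ± 0.14, adjusted *p* = 4.73e-25), and *Pdgfra* (-0.36), *C1ql1* (-0.66) and *Gpr17* (-0.32) differed by less and turned sign with spike-in size factors. The call of *C1ql1* was lost when any of 2 of the 8 libraries was left out (adjusted *p* = 0.107 to 0.137), and that of *Gpr17* lost when any of 4 of the 8 libraries was left out (adjusted *p* = 0.108 to 0.163). The count was 5 without the amygdala library of mouse 1, when *Olig1* was called too (-0.32, adjusted *p* = 0.0109).

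**Figure D4:**
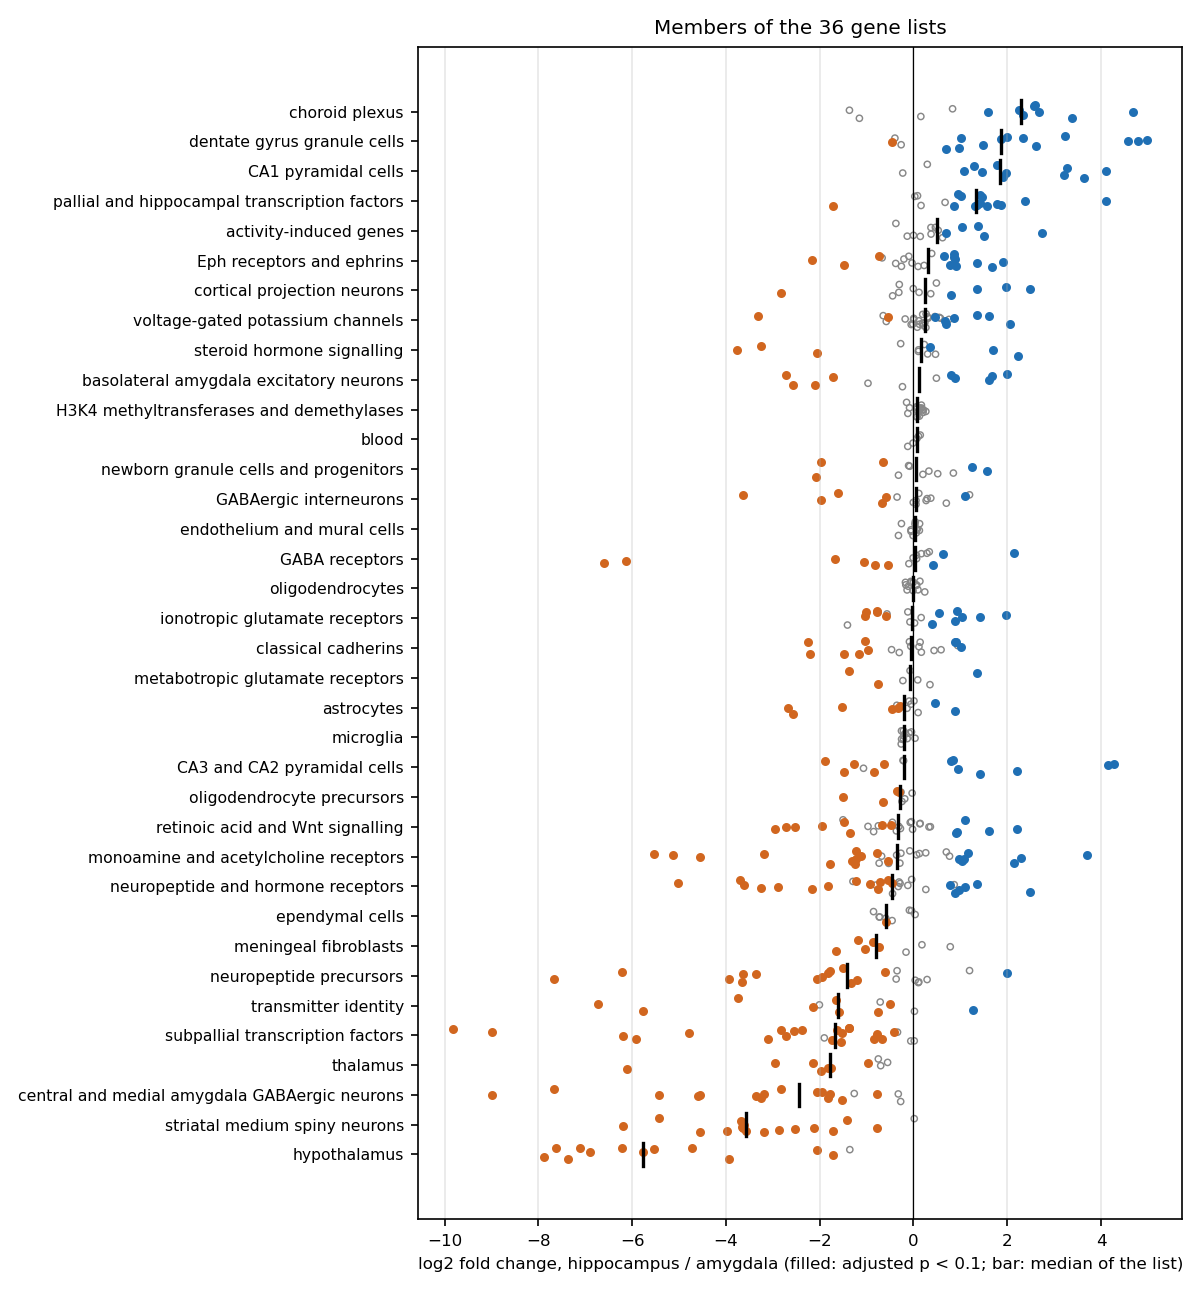
Log2 fold change of hippocampus over amygdala for each tested member of the 36 gene lists, ordered by list median (black bar), with called genes filled (blue higher in hippocampus, orange higher in amygdala) and others open. Choroid plexus, dentate gyrus and CA1 lists have the highest medians (2.30, 1.86 and 1.85) and the striatal and hypothalamic lists the lowest (-3.56 and -5.77), while the astrocyte, oligodendrocyte, microglial, vascular and blood lists have medians from -0.21 to 0.07.

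Genes that make or load transmitters stood mostly on the amygdala side. Of 12, 8 were higher in the amygdala with 1 on the hippocampal side. That one was *Slc17a7*, the vesicular glutamate transporter VGLUT1 of cortical neurons, with counts of 58049, 49040.5, 55954 and 50277 in the hippocampus against 40890.0, 14257, 22163 and 11526 in the amygdala (1.26 ± 0.32, adjusted *p* = 0.00102). Mouse 1 was the highest amygdala library by far, and the call was lost without the hippocampal library of mouse 1 (adjusted *p* = 0.119). *Slc17a6*, the transporter VGLUT2 of subcortical neurons, had counts of 1006, 2346, 3380.5 and 2139 in the amygdala against 395, 606, 459 and 554 in the hippocampus (-2.14 ± 0.30, adjusted *p* = 5.10e-11). *Slc32a1*, the vesicular GABA transporter, had 4672, 9143, 6567 and 7949 in the amygdala against 2439, 2224, 2165 and 2657 in the hippocampus (-1.58 ± 0.20, adjusted *p* = 1.49e-13). *Th*, which makes dopamine and noradrenaline, had counts of 34.1, 272, 149 and 107 in the amygdala against 12.8, 6.96, 6.65 and 15.6 in the hippocampus (-3.73 ± 0.55, adjusted *p* = 5.76e-10). *Slc18a2* (-0.71) and *Slc17a8* (0.02) were not called, although *Slc18a2* was called higher in the amygdala without the amygdala library of mouse 1 (adjusted *p* = 0.00406).

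Markers of GABAergic interneurons did not follow *Slc32a1* as a group, with 5 of 16 higher in the amygdala, 1 in the hippocampus and a median of 0.05. *Kit*, a receptor tyrosine kinase, had counts of 2009.6, 1917, 1592 and 1728 in the hippocampus against 910.5, 843, 854 and 761 in the amygdala (1.11 ± 0.12, adjusted *p* = 9.91e-18). *Calb2* (calretinin) had counts of 1334, 2825, 2191 and 1694 in the amygdala against 791, 349, 374 and 538 in the hippocampus (-1.97 ± 0.29, adjusted *p* = 5.50e-10), and *Sncg* (-1.61) and *Tac1* were also higher in the amygdala. *Sst* (somatostatin) had counts of 6427, 3609, 3616 and 1930.2 in the amygdala against 3397, 2238, 3014 and 3574 in the hippocampus (-0.35 ± 0.30, adjusted *p* = 0.587), so that the groups overlapped. *Cck* (cholecystokinin) had counts of 6953, 5302, 8218 and 7021 in the hippocampus against 6047, 1650.5, 3217 and 1091 in the amygdala (1.20 ± 0.55, adjusted *p* = 0.152), and it was called with the mouse as a block (0.0189) or without the amygdala library of mouse 1 (1.79, 1.94e-04). The hippocampal count of the list was 3 with the block and 4 without that library.

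Ionotropic glutamate receptor subunits were divided. Of 18, 7 were higher in the hippocampus and 5 in the amygdala. *Grin2a*, the GluN2A subunit of the NMDA receptor, had counts of 6614, 13971, 7723 and 6454 in the hippocampus against 1601, 1756, 2547 and 2968 in the amygdala (1.97 ± 0.28, adjusted *p* = 7.61e-11), with mouse 2 far above the others. *Gria1* and *Gria2*, which encode the main AMPA receptor subunits, had log2 fold changes of 1.03 ± 0.18, adjusted *p* = 6.82e-07 and 0.88 ± 0.17, adjusted *p* = 6.79e-06. The counts of *Gria1* were 20416, 24115, 19846 and 13486 in the hippocampus against 8127, 9479.9, 9251 and 11173 in the amygdala, and mouse 4 was the lowest hippocampal library. On the amygdala side stood *Grin2d* (-1.02 ± 0.21, adjusted *p* = 2.26e-05) and *Grin3a* (-0.77 ± 0.21, adjusted *p* = 0.003, of the opposite sign with spike-in size factors). The kainate receptor genes *Grik3* (-0.57) and *Grik5* (0.16) were not called, but with the mouse as a block *Grik3* was called higher in the amygdala (adjusted *p* = 1.67e-04). Without the amygdala library of mouse 1, *Grik3* was called on that side (-0.74, adjusted *p* = 4.06e-04) and *Grik5* was called higher in the hippocampus (0.37, 5.94e-04). Of 7 metabotropic receptors, *Grm2*, a presynaptic receptor, was higher in the hippocampus with counts of 2167, 2009, 1635 and 1775 in the hippocampus against 882, 644, 971 and 479 in the amygdala (1.35 ± 0.22, adjusted *p* = 2.03e-08), *Grm4* (-1.37) and *Grm8* (-0.76, of the opposite sign with spike-in size factors) were higher in the amygdala, and *Grm5* (0.35) was not called.

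GABA receptor subunits were divided as well, with 3 of 16 higher in the hippocampus and 6 in the amygdala. *Gabra5*, the alpha-5 subunit of extrasynaptic receptors, had counts of 3866, 3629, 3892 and 2073 in the hippocampus against 905, 715, 757 and 669 in the amygdala (2.14 ± 0.21, adjusted *p* = 1.70e-22). *Gabrg1* had counts of 808, 1052, 1000.1 and 1105 in the amygdala against 318, 359, 299 and 262 in the hippocampus (-1.68 ± 0.15, adjusted *p* = 7.16e-25). *Gabrq* and *Gabre*, which encode the theta and epsilon subunits known from hypothalamic and brainstem neurons, had few counts in the hippocampus. The counts of *Gabrq* were 160.3, 851, 390.5 and 405 in the amygdala against 1.17, 1.99, 6.65 and 15.6 in the hippocampus (-6.13 ± 0.84, adjusted *p* = 2.85e-11) and those of *Gabre* 35.1, 399, 246 and 219 in the amygdala against 4.66, 2.98, 0 and 1.74 in the hippocampus (-6.60 ± 0.95, adjusted *p* = 2.97e-10). The GABA-B receptor gene *Gabbr2* (0.42) was higher in the hippocampus, a call lost when any of 3 of the 8 libraries was left out (adjusted *p* = 0.101 to 0.135), and *Gabbr1* (-0.10) was not called.

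Neuropeptide precursors stood mostly on the amygdala side, with 14 of 22 higher there, 1 higher in the hippocampus and a median of -1.42. *Penk*, *Trh*, *Cartpt* and *Tac1* had the smallest adjusted *p*. The exception was *Grp*, gastrin-releasing peptide, with counts of 217, 215, 155 and 358 in the hippocampus against 145, 30.0, 52.2 and 9.17 in the amygdala (2.00 ± 0.77, adjusted *p* = 0.0667), where mouse 1 was the highest amygdala library. This call was lost when any of 6 of the 8 libraries was left out (adjusted *p* = 0.107 to 0.218). The hippocampal count was 3 without that library and 2 with the mouse as a block. *Vgf*, which was not called, had counts of 15232, 11187, 9307 and 7901 in the amygdala against 10469, 6608, 7596 and 9094 in the hippocampus (-0.37 ± 0.22, adjusted *p* = 0.336).

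Of 29 receptors for peptides and hormones, 13 were higher in the amygdala with 6 on the hippocampal side, and a median of -0.46 that became 0.30 with spike-in size factors. *Tacr1*, the receptor of substance P, had counts of 267, 404, 328 and 486 in the amygdala against 36.1, 24.9, 17.7 and 35.6 in the hippocampus (-3.69 ± 0.28, adjusted *p* = 1.52e-37). *Oprk1*, the kappa opioid receptor, had 165, 341, 305 and 505 in the amygdala against 40.8, 27.8, 34.4 and 35.6 in the hippocampus (-3.25 ± 0.32, adjusted *p* = 3.24e-21). The galanin receptor gene *Galr1* (-3.61) was also higher in the amygdala. On the hippocampal side, *Sstr4*, a somatostatin receptor, had counts of 453, 781, 486 and 431 in the hippocampus against 68.3, 104, 88.7 and 121 in the amygdala (2.49 ± 0.25, adjusted *p* = 2.75e-21). *Npy2r*, the Y2 receptor of neuropeptide Y, had 1033, 833, 892 and 483 in the hippocampus against 343, 346, 313 and 261 in the amygdala (1.36 ± 0.23, adjusted *p* = 7.81e-08). Another somatostatin receptor gene, *Sstr3*, was higher in the hippocampus by 0.97. *Ntsr2* (-0.29) and *Cckbr* (-0.12) were not called.

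Steroid signalling genes gave 3 higher in each region among 12. *Nr3c2*, the mineralocorticoid receptor, had counts of 4153, 4882, 4557 and 2514 in the hippocampus against 693, 805, 916 and 1033 in the amygdala (2.22 ± 0.21, adjusted *p* = 1.19e-22), whereas *Nr3c1*, the glucocorticoid receptor, had 1616, 2341, 1872 and 1988 in the hippocampus against 1376, 1561, 2193 and 2142 in the amygdala (0.10 ± 0.19, adjusted *p* = 0.857) and overlapped. *Hsd11b1*, which regenerates active corticosterone, had counts of 620.1, 447, 494 and 500 in the hippocampus against 113, 152, 231 and 145 in the amygdala (1.69 ± 0.22, adjusted *p* = 2.32e-12). The kinase gene *Sgk1*, a target of both receptors, was higher in the hippocampus by 0.34 (adjusted *p* = 0.0395, and 0.104 with the mouse as a block), a call lost when any of 4 of the 8 libraries was left out (adjusted *p* = 0.148 to 0.197), and *Fkbp5* was not called (0.47). When the amygdala library of mouse 1 was left out, *Fkbp5* was called higher in the hippocampus (adjusted *p* = 0.0731). The estrogen receptor genes *Esr1* and *Esr2* were higher in the amygdala, and *Esr2* had counts of 15.2, 26.3, 15.7 and 25.7 in the amygdala against 3.50, 0, 0 and 2.60 in the hippocampus (-3.76 ± 0.79, adjusted *p* = 4.42e-05).

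Of 31 receptors for monoamines and acetylcholine, 12 were higher in the amygdala with 7 on the hippocampal side (median -0.36, which became 0.38 with spike-in size factors). After *Adra1d*, the smallest adjusted *p* belonged to *Htr2c*, the serotonin 2C receptor, with counts of 1673, 2008, 1372 and 1943 in the amygdala against 414, 599, 448 and 569 in the hippocampus (-1.78 ± 0.18, adjusted *p* = 1.94e-21). *Htr1d*, another serotonin receptor, had counts of 59.8, 130.3, 137 and 232 in the amygdala against 0, 4.97, 3.33 and 3.47 in the hippocampus (-5.53 ± 0.59, adjusted *p* = 8.28e-19). On the hippocampal side, *Chrm3*, the M3 muscarinic receptor, had counts of 1268, 1592, 1415 and 1444 in the hippocampus against 565, 644, 753 and 586 in the amygdala (1.17 ± 0.14, adjusted *p* = 1.23e-15). *Htr5b* had 168, 140.2, 89.8 and 59.9 in the hippocampus against 32.2, 23.4, 24.01 and 13.8 in the amygdala (2.29 ± 0.38, adjusted *p* = 7.69e-08). *Adra2c* (-0.36) and *Chrnb2* (-0.27) were not called. Without the amygdala library of mouse 1, *Chrnb2* was called higher in the amygdala (-0.39, adjusted *p* = 6.19e-04) and the count on that side was 15.

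Genes of axon guidance and adhesion were compared by family. Of 22 Eph receptors and ephrins, which guide axons by contact, 9 were higher in the hippocampus and 3 in the amygdala (median 0.31). *Epha4* had counts of 7351, 9219, 8134 and 5647 in the hippocampus against 1376, 1579, 2566 and 2588 in the amygdala (1.90 ± 0.23, adjusted *p* = 5.69e-14). *Epha7* had 3664, 4126, 3754 and 1810.1 in the hippocampus against 1150.5, 843, 1023 and 1192 in the amygdala (1.67 ± 0.24, adjusted *p* = 2.02e-10). On the other side stood *Epha8*, with counts of 166, 397, 423 and 516 in the amygdala against 113, 120.3, 113 and 189 in the hippocampus (-1.48 ± 0.32, adjusted *p* = 6.95e-05), *Efnb2* (-0.73, of the opposite sign with spike-in size factors) and *Epha1* (-2.17, adjusted *p* = 0.0273, and 0.122 with the mouse as a block). The call of *Epha1* was lost when any of 4 of the 8 libraries was left out (adjusted *p* = 0.102 to 0.136). *Ephb6* was higher in the hippocampus (0.91), and *Epha5* (0.39) and *Efnb3* (-0.20) were not called, although *Efnb3* was called higher in the amygdala without the amygdala library of mouse 1 (adjusted *p* = 0.0109). Of 19 classical cadherins, 6 were higher in the amygdala with 3 on the hippocampal side (median -0.06), against 0 and 0 with spike-in size factors (median 0.82). *Cdh4* had counts of 1251, 1586, 1456 and 1528 in the amygdala against 305, 312, 255 and 392 in the hippocampus (-2.20 ± 0.16, adjusted *p* = 3.36e-41), *Cdh13* (-0.97) and *Cdh22* (-1.47) were also higher in the amygdala, and *Cdh11* had counts of 1493, 1624, 1551 and 1309 in the hippocampus against 612, 773, 765 and 826 in the amygdala (1.01 ± 0.13, adjusted *p* = 7.02e-12). *Cdh9* (0.92) and *Cdh12* (0.89) were higher in the hippocampus. *Cdh2* (-0.06) was not called, nor was *Cdh8* (0.59), which was called with the mouse as a block (adjusted *p* = 0.0333) and without the amygdala library of mouse 1 (0.0823).

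Of 31 voltage-gated potassium channel genes 7 were higher in the hippocampus (4 with edgeR) and 2 in the amygdala, the latter being *Kcna5*, with counts of 267, 451, 353 and 479 in the amygdala against 40.8, 48.7, 34.4 and 33.0 in the hippocampus (-3.31 ± 0.25, adjusted *p* = 2.60e-37), and *Kcna6* (-0.55, of the opposite sign with spike-in size factors), a call lost when any of 5 of the 8 libraries was left out (adjusted *p* = 0.12 to 0.165). *Kcng2*, a modulatory subunit, had counts of 1104, 942, 766 and 577 in the hippocampus against 242, 191, 187 and 198 in the amygdala (2.05 ± 0.21, adjusted *p* = 5.61e-20). *Kcns3* (1.600) was called as well, and *Kcnc1* (-0.01) was not. Secreted and nuclear components of retinoic acid and Wnt signalling were divided, with 8 of 28 higher in the amygdala with 5 on the hippocampal side. *Rarb*, a retinoic acid receptor of the striatum, had counts of 101, 288, 319 and 657 in the amygdala against 74.6, 61.6, 43.3 and 58.2 in the hippocampus (-2.52 ± 0.43, adjusted *p* = 1.34e-07), and the retinoid-binding protein gene *Crabp1* (-2.71) and the Wnt antagonist gene *Sfrp2* (-1.95) lay on the same side. *Dkk3* and the Wnt activators *Rspo2* (1.62) and *Rspo3* (0.91) were higher in the hippocampus. *Aldh1a1* (0.14) was not called, and *Wnt7b* (0.36) was called with the mouse as a block (adjusted *p* = 0.033) and without the amygdala library of mouse 1 (1.75e-04).

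Among 12 genes of cortical projection neurons, 4 were higher in the hippocampus, among them *Nr4a2* (1.36), *Fezf2* (2.49) and *Etv1* (0.80). *Foxp2*, a factor of deep-layer cortical and striatal neurons, was higher in the amygdala with counts of 204, 489, 583 and 1129 in the amygdala against 32.6, 65.6, 92.1 and 148 in the hippocampus (-2.83 ± 0.62, adjusted *p* = 1.15e-04). *Bcl11b* (0.37) was not called, and *Rasgrf2* (-0.45) was called with the mouse as a block (adjusted *p* = 0.0268). *Rasgrf2* was also called without the amygdala library of mouse 1 (0.0381), and the counts were 5 and 2.

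Genes that neuronal activity induces were higher in the hippocampus where they differed, in 5 of 14 genes (median 0.50). *Nr4a3*, a nuclear receptor, had counts of 2467, 2235, 2118 and 1570.5 in the hippocampus against 538, 161, 324 and 239 in the amygdala (2.73 ± 0.30, adjusted *p* = 5.29e-17). *Bdnf*, brain-derived neurotrophic factor, had 909, 814, 735 and 520.0 in the hippocampus against 473, 242, 290.2 and 150.5 in the amygdala (1.37 ± 0.30, adjusted *p* = 1.36e-04). *Egr3* (0.70) and *Nr4a1* (1.03) were also called. *Junb* had counts of 2268, 1045, 1147 and 1116 in the hippocampus against 1775, 739, 718 and 637 in the amygdala (0.53 ± 0.34, adjusted *p* = 0.411), and mouse 1 was far above the other mice in both regions. With the mouse as a block *Junb* (adjusted *p* = 4.59e-04) and *Egr1* (0.00767) were higher in the hippocampus too, which raised the count from 5 to 8, and without the amygdala library of mouse 1 it was 10, with *Junb* (5.67e-04) and *Egr1* (1.11e-05) among them. The summed list was highest in mouse 1 in both regions, at 22617 against 13672 to 14577 in the other hippocampal libraries and 14282 against 6705 to 7632 in the other amygdala libraries.

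The mutant mice of the series carry alleles of *Kmt2a*, a writer, and *Kdm5c*, an eraser of methylation on lysine 4 of histone H3 (H3K4). Neither gene was called between the regions in WT mice. *Kmt2a* had counts of 2074, 4703, 4011 and 5411 in the amygdala against 3307, 6139, 3747 and 4625 in the hippocampus (0.14 ± 0.28, adjusted *p* = 0.876). *Kdm5c* had 1177, 1511, 1612 and 1944 in the amygdala against 1536, 1959, 1462 and 1584 in the hippocampus (0.07 ± 0.17, adjusted *p* = 0.904). Both ranges overlapped. By DESeq2, 0 of 18 H3K4 methyltransferase and demethylase genes were called, 0 had an unadjusted *p* under 0.05 and edgeR called 0, with log2 fold changes from -0.15 to 0.26. In the mutant mice, which carry alleles of genes in this list, 7 of the 18 were called higher in the hippocampus and 1 in the amygdala, where 44.3% of all genes tested in those mice were called.

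The difference between the regions was then read in the 12 mutant mice, whose 24 libraries the WT comparison did not use. There, 10493 of 23684 tested genes (44.3%) were called between hippocampus and amygdala, in a fit of 12 mice that did not pair the regions of a mouse. Of the 3413 genes called in WT, 3395 (99.5%) pointed the same way in the mutant mice and 3302 were called there in the same direction. The count was 1564 of 1619 on the hippocampal side and 1738 of 1794 on the amygdala side. In the opposite direction DESeq2 called 0 of the 3413, with 0 at an unadjusted *p* under 0.05, and edgeR called 1. Of the tested genes that were not called in WT, 77.3% pointed the same way in the mutant mice. For *Lct* the log2 fold change was 5.72 in mutant mice against 4.99 in WT, for *Adra1d* 4.16 against 3.70, for *Baiap3* -4.95 against -5.10 and for *Oxt* -9.15 against -7.36.

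**Figure D5:**
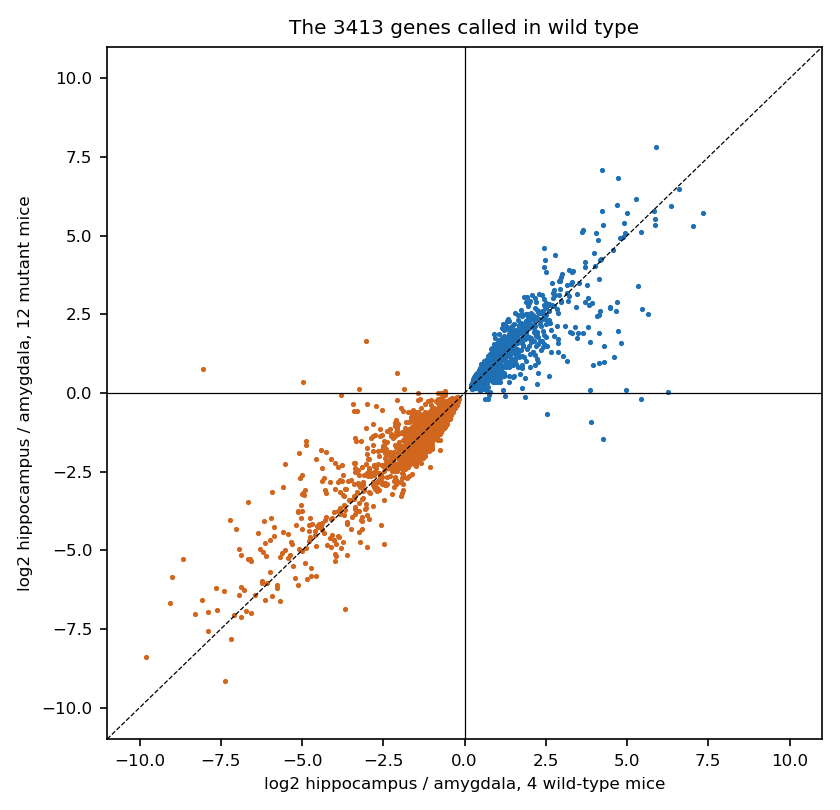
Log2 fold change of hippocampus over amygdala in the 12 mutant mice (vertical axis) against that in the 4 WT mice (horizontal axis) for the 3413 genes called in WT, with the dashed line marking equal values. Of these genes 3395 have the same sign in both, and the 18 others lie in the upper left and lower right of the plot.

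Whether the region difference in WT differed from that of the mutant genotypes on average was tested as the WT difference minus the mean of the 3 mutant differences. An effect in 1 genotype is diluted in this mean, and effects of opposite direction can cancel. By this test 4 of 32039 genes (0.0125%) were called and 568 had an unadjusted *p* under 0.05, while edgeR called 0 with 412 at that level. With the mouse as a block 1 of the 4 calls was left, that of *Cacng6* (adjusted *p* = 2.41e-05). In the fit without the block, the *Cacng6* difference was -1.74 and not called without both libraries of WT mouse 1 (adjusted *p* = 1). The others had adjusted *p* of 0.88 (*1700003F12Rik*), 1 (*Samd3*) and 1 (*E130208F15Rik*) with the block. *Cacng6*, a regulatory subunit of calcium channels, was called higher in the hippocampus in the mutant mice (2.86) and was not called in WT (0.25). Its counts in WT were 62.6, 16.1, 22.0 and 10.2 in the amygdala against 31.6, 28.9, 48.9 and 22.7 in the hippocampus, whereas the hippocampal mean was 389.7 ± 178 (SD, n = 4) in 5c-KO and 554 ± 111 in DM mice against amygdala means of 41.0 ± 17.0 and 41.7 ± 9.56. In 2a-HET mice the hippocampal and amygdala means were 51.0 ± 18.4 and 19.2 ± 6.08, so that most of the mutant difference lay in the genotypes that lack *Kdm5c*, a split that was not tested. The difference of the log2 fold changes was -2.55 (adjusted *p* = 0.00268). *1700003F12Rik* (1.48, adjusted *p* = 0.0772) was called lower in the hippocampus in the mutant mice (-1.29) and had means of 33.3 ± 10.97 in the hippocampus and 29.3 ± 2.498 in the amygdala in WT. This gene overlaps *Necab3* on the other strand, and its call was lost without any 1 of the 4 WT mice (adjusted *p* of 0.116 or more). *Samd3* had higher counts in each amygdala library than in any hippocampal one, and its difference (3.57, adjusted *p* = 0.0424) went with 1 WT hippocampal library, that of mouse 4, at 19.2 against 0 to 3.33 in the other 3. The 4th gene, *E130208F15Rik*, had 0 counts in all WT amygdala libraries and 0, 8.97, 9.99 and 11.3 in the hippocampus. Mutant libraries were also mixed, with 61.0, 26.7, 0 and 76.4 in the 2a-HET hippocampus and 100.4, 0, 0 and 0 in the 5c-KO amygdala. The call of this gene was lost without WT mouse 2, 3 or 4 (adjusted *p* = 0.116 to 0.206), and its fitted difference is not read as a fold.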

How the data were processed

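Poly(A) RNA of hippocampus and amygdala from 4 WT and 12 mutant mice was sequenced. The authors aligned reads with STAR 2.5.3a, kept those that mapped uniquely, removed duplicates and counted the rest with featureCounts (Subread 1.5.0) against GENCODE genes on mm10, per the study's methods. The deposited gene tables hold expected counts, of which 7.07% are not whole, although the tool that estimates fractions is not given in the sources used here. They hold 53715 genes and 92 spike-in sequences, and 95 genes without a match in the annotation of the box were kept. Isoform tables were not used.

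Expected counts were rounded. DESeq2 1.42.0 (R 4.3.3) compared regions with a Wald test on unshrunken log2 fold changes and Benjamini-Hochberg adjustment, without the spike-ins, in 8 WT libraries (region), 24 mutant libraries (genotype and region) and all 32 libraries (8 groups). The alternatives were edgeR 4.0.16, TMM and spike-in size factors, at least 10 counts in 4 libraries, an adjusted *p* under 0.05, a log2 fold change of at least 1, the mouse as a block, all libraries in 1 fit, and leaving out each library or mouse. The fits were checked on simulated counts. Promoter windows came from RefSeq.

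Numbers in the labels mark the mouse, so both regions of a number come from 1 animal. The deviations of its 2 libraries from their group means correlated at 0.432, 0.113, 0.0513 and -0.0166 for mice 1 to 4, and those of the 12 pairs from different mice ran from -0.512 to 0.523. Library totals and floors are given above, and intervals and floors cover counting error only.

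Named genes are, among called coding genes with 1 direction in all mice and a mean of at least 100 in the higher region, the 8 with the largest fold change and the 6 with the smallest adjusted *p* in each direction. To these come, in each list, up to 4 called members, up to 3 that go against the others and up to 2 uncalled ones with the highest means, the genes of the 2 mutant alleles, up to 5 genes that differ between genotypes and 3 noncoding genes. *Pmch*, *Hcrt*, *Avp*, *Gbx2*, *Chat* and *Cnp* were chosen after their values were seen. Some genes that the rule names are not reported here. Genes compared and lists were chosen with earlier results of these data known.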

Additional observations from a re-analysis of the deposited data

Results flagged for a closer look

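Within a group of 4 libraries, the gap of the outermost library to its nearest neighbour was divided by the range of the group. In 36 of 432 groups of named genes this ratio exceeded Dixon's 95% critical value for 4 samples. In 5 of these groups (*Isl1*, *Calcr*, *Sim1*, *Agrp* and *Hcrt* in the hippocampus) the other 3 libraries were at 0, so that any count exceeds the value. Of the other 427 groups, 31 exceeded it, and 12 of the 31 were the amygdala library of mouse 1 and 9 the hippocampal library of mouse 4. The critical value assumes independent normal values, which counts of selected genes from shared libraries are not, so the 31 are not compared with a chance rate. All values are normalised counts. The amygdala library of mouse 1 stood above the other 3 with 69.2 for *Lct*, 12.3 for *Sebox*, 1516 for *Plk5*, 2429 for *Vtn*, 12538 for *Grik5*, 3864 for *Cdh22*, 1270.0 for *Nr4a1*, 3273 for *Egr1*, 1775 for *Junb* and 1507 for *Wnt7b*. The amygdala library of mouse 1 stood below the other 3 with 3.79 for *Epha1* and 2137 for *Kcna6*. The amygdala library of mouse 2 stood above the other 3 with 945 for *Cabp7* and 5709 for *Zcchc12*. The amygdala library of mouse 3 stood above the other 3 with 6.26 for *Agrp*. The amygdala library of mouse 4 stood above the other 3 with 43.1 for *Mki67* and 647 for *Sp9*. The hippocampal library of mouse 1 stood above the other 3 with 2397 for *Adra1d*, 2.33 for *Sim1*, 1278 for *Adra2c* and 2268 for *Junb*. The hippocampal library of mouse 2 stood above the other 3 with 13971 for *Grin2a* and 781 for *Sstr4*. The hippocampal library of mouse 4 stood above the other 3 with 0.868 for *Isl1*, 2.60 for *Calcr*, 9.55 for *Otp*, 881 for *Otof*, 4.34 for *Agrp*, 2773 for *Nr2f1*, 189 for *Epha8*, 3763 for *Ephb6*, 6.95 for *Pmch* and 2.60 for *Hcrt*. The hippocampal library of mouse 4 stood below the other 3 with 1960.3 for *Lmo3*, 2073 for *Gabra5* and 2.60 for *Crabp1*.

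The region difference in WT minus the mean of the mutant genotypes passed the threshold for 4 genes by DESeq2. It was -2.55 for *Cacng6*, 3.57 for *Samd3* and 1.48 for *1700003F12Rik* on the log2 scale. For *E130208F15Rik*, whose WT amygdala libraries were all at 0, the fitted value of 20.4 depends on how the model treats zeros and is no bound. By edgeR 0 of these genes were called, with 412 of all tested genes at an unadjusted *p* under 0.05.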

How the results depend on the processing

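The count of 3413 genes between the regions in WT mice was within 1.5 times under edgeR, TMM size factors, the filter on low counts, an adjusted *p* under 0.05 and the fit of all 32 libraries. With the mouse as a block it was 3047 (1519 higher in the hippocampus and 1528 in the amygdala), and 2820 of these genes were among the 3413. Size factors from the spike-in RNA gave 305 genes (214 and 91), and a log2 fold change of at least 1 gave 1454 (579 and 875), which is fewer by construction. Leaving out 1 library or 1 mouse gave 1853 to 4336 genes, of which 912 to 2124 were higher in the hippocampus and 941 to 2212 in the amygdala. The highest count came without the amygdala library of mouse 1, and the counts without mouse 2 (1853) and mouse 3 (1975, with 1005 and 970) differed from 3413 by over 1.5 times. Part of the fall comes from fewer samples.

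The count of 10493 genes in the mutant genotypes stayed within 1.5 times under every alternative run. The 3302 shared calls also did, but there only the mutant fit was varied and the WT genes were held at the 3413. With spike-in size factors in the mutant fit 2410 were shared, whereas the WT fit with these factors called 305. The 4 genes of the difference between WT and mutant genotypes became 0 with edgeR, 1 with spike-in size factors, 1 with the mouse as a block and 0 with edgeR and the block. They became 1 to 4 when a WT mouse was left out, an alternative chosen after seeing the data, with 2 without mouse 3 and 1 without mouse 4.

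Of 152 named genes that were called, 64 kept their call under every alternative and 126 under every one except spike-in size factors. With spike-in size factors 12 turned sign, without a call, to log2 fold changes of 0.33 for *Calb1*, 0.16 for *Ptpn5*, 0.17 for *Sox11*, 0.15 for *Rarres2*, 0.43 for *Pdgfra*, 0.066 for *C1ql1*, 0.44 for *Gpr17*, 0.077 for *Col1a1*, 0.069 for *Grin3a*, 0.19 for *Grm8*, 0.33 for *Efnb2* and 0.31 for *Kcna6*. No other alternative turned the sign of a called named gene. The cause of the spike-in result was not tested. Among single libraries other than the amygdala library of mouse 1, calls were lost without the amygdala library of mouse 2 for *Eomes*, *Mki67*, *C1ql1*, *Gpr17*, *Slc1a2*, *Col3a1*, *Gabbr2*, *Grp*, *Sgk1*, *Epha1* and *Kcna6*, of mouse 3 for *Calb1*, *Mki67*, *Gpr17*, *Grp*, *Sgk1*, *Epha1* and *Kcna6* and of mouse 4 for *Rarres2*, *Col3a1*, *Gabbr2*, *Epha1* and *Kcna6*. They were lost without the hippocampal library of mouse 1 for *C1ql1*, *Gpr17*, *Slc17a7*, *Grp*, *Sgk1* and *Kcna6*, of mouse 2 for *Mki67*, *Rarres2*, *Slc1a2*, *Grp* and *Epha1*, of mouse 3 for *Ttr*, *Grp*, *Sgk1* and *Kcna6* and of mouse 4 for *Rarres2*, *Gpr17*, *Gabbr2* and *Grp*. Calls were gained without the amygdala library of mouse 4 for *Bcl11b*, *Rsph1*, *Cck*, *Grm5*, *Ntsr2* and *Cdh8*, without the hippocampal library of mouse 3 for *Clic6*, *Prlr* and *Olig1* and without that of mouse 4 for *Rasgrf2*, *Grik3*, *Fkbp5*, *Epha5* and *Cdh8*. Depth allowed 0.111 to 0.146 CPM as the floor of a library, and 4 mice limit the detection of small differences. With the mouse as a block, no call of a named gene between the regions changed other than those given beside the genes above.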
